A study of Drosophila melanogaster with 14 samples.

Results

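The genes described here are the nucleoporins, the proteins that build the nuclear pore, and a small set of factors that carry cargo through it, in nuclei of Drosophila melanogaster embryos. Members were taken by FlyBase symbol: every gene whose symbol starts with Nup and a digit, and 13 further named genes. The symbols came to 34, of which 32 were found in the tables analysed, out of 16073 genes in all. Mtor had no match by symbol and Pen no row under its identifier, and both are not analysed here. Reads per gene were counted in RNA from nuclei isolated by INTACT, in which a tag placed on the nuclear envelope of chosen cells lets their nuclei be pulled out of a whole-embryo extract.

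Mesodermal nuclei of genotype twi-INTACT, in which the tag follows the twi promoter, were sampled at stages 14-17 and at stages 10-13. Neuronal nuclei of genotype elav>INTACT, in which the elav driver sets where the tag is made, were sampled at the same stages, with 2 libraries for each of these 4 groups. A second set held mesodermal nuclei of stages 14-17 with GFP-tagged Ubx, a Hox transcription factor. Its degraded group (twi-INTACT, Mef2>Nslmb,GFP-Ubx) made Nslmb, which directs GFP fusion proteins to degradation, under the muscle driver Mef2. Its control group (twi-INTACT; UAS-Nslmb,GFP-Ubx) carried GFP-Ubx and the Nslmb transgene with no driver named. This set had 3 libraries a group. The labels do not say that replicates are separate embryo collections, so p-values measure the spread between these libraries, which may be technical.

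The nuclear pore is a ring of repeated subcomplexes set into the nuclear envelope. The Y complex and the inner ring form its scaffold, membrane nucleoporins anchor it, the central channel carries the barrier of phenylalanine-glycine repeats, and filaments reach into the cytoplasm and a basket into the nucleus. Importins and exportins pass that barrier with cargo, and the small GTPase Ran sets their direction. In animal cells new pores are built mainly as the nuclear envelope reforms after mitosis and as the nucleus grows, and long-lived differentiated cells keep scaffold proteins for long times.

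Assigned counts ranged from 12970816 to 17905141 in the mesodermal and from 27924215 to 36150646 in the neuronal libraries, and from 24391565 to 28150883 in the degraded and from 24314883 to 31033963 in the control libraries. Of 8 mesoderm and muscle markers, 7 were higher and 0 lower in late mesoderm than in late neuronal nuclei, with Mef2 at 746 to 786 CPM, against 162 to 176 CPM. At stages 10-13, 4 were higher in mesoderm (twi, Mef2, lmd and sns) and 2 lower. The lower ones were the muscle structural genes Mhc, at 628 to 926 CPM in early mesoderm, against 2276 to 2784 CPM in early neuronal nuclei, and Mlc2, at 68.3 to 117 CPM, against 626 to 818 CPM. Summed levels of the 8 were 7922 to 8735 CPM in early mesoderm, against 6678 to 7067 CPM in early neuronal nuclei. The neuronal label was less distinct. Over 8 neuron markers, summed levels were 909 to 1243 CPM in late mesoderm, against 641 to 803 CPM in late neuronal nuclei, and elav itself, which lies among overlapping genes, was at 0.0334 to 0.344 CPM in the 8 libraries of this set. At stages 10-13 the same sum was 230 to 251 CPM in mesoderm, against 608 to 835 CPM in neuronal nuclei. Ubx RNA was at 62.7, 79.1 and 89.8 CPM in degraded nuclei, against 68.9, 60.3 and 71.0 CPM in controls, and does not check a loss of protein.

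Of the 32 members, 31 were tested in each set. Nup44A, a Y complex gene, lies wholly inside ACC and had 0 counts in all 8 mesodermal and neuronal libraries, so its level there is not known. It averaged 8.14 ± 0.95 CPM in degraded and 8.87 ± 1.25 CPM in control nuclei (SD, n = 3 each). These values are uncertain, since ACC overlaps 100% of its span, though 0% of its exonic bases. Gp210, a membrane nucleoporin, was in the tables of the tissue and stage set alone. Levels are CPM, read counts scaled to a common normalised library size, and differences are log2 with their SE. A difference is called where the adjusted p is under 0.05, from the quasi-likelihood test of edgeR with Benjamini and Hochberg's adjustment over all genes of the fit. In these bulk samples, fewer cells of a type and less RNA per cell cannot be told apart.

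In mesodermal nuclei, nuclear pore genes were broadly lower at stages 14-17 than at stages 10-13. Of 31 members tested, 27 fell and 0 rose, while over all 10549 genes tested 22.7% fell and 24.9% rose. The median change was -1.40 over the members and 0.00 over all genes. Summed over the 30 members tested in both sets, the level was 2006 and 2092 CPM in late mesoderm, against 4523 and 4216 CPM in early mesoderm. No member rose at an unadjusted p under 0.05, and DESeq2 and limma-voom also called 27 lower and 0 higher.

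**Figure D1:**
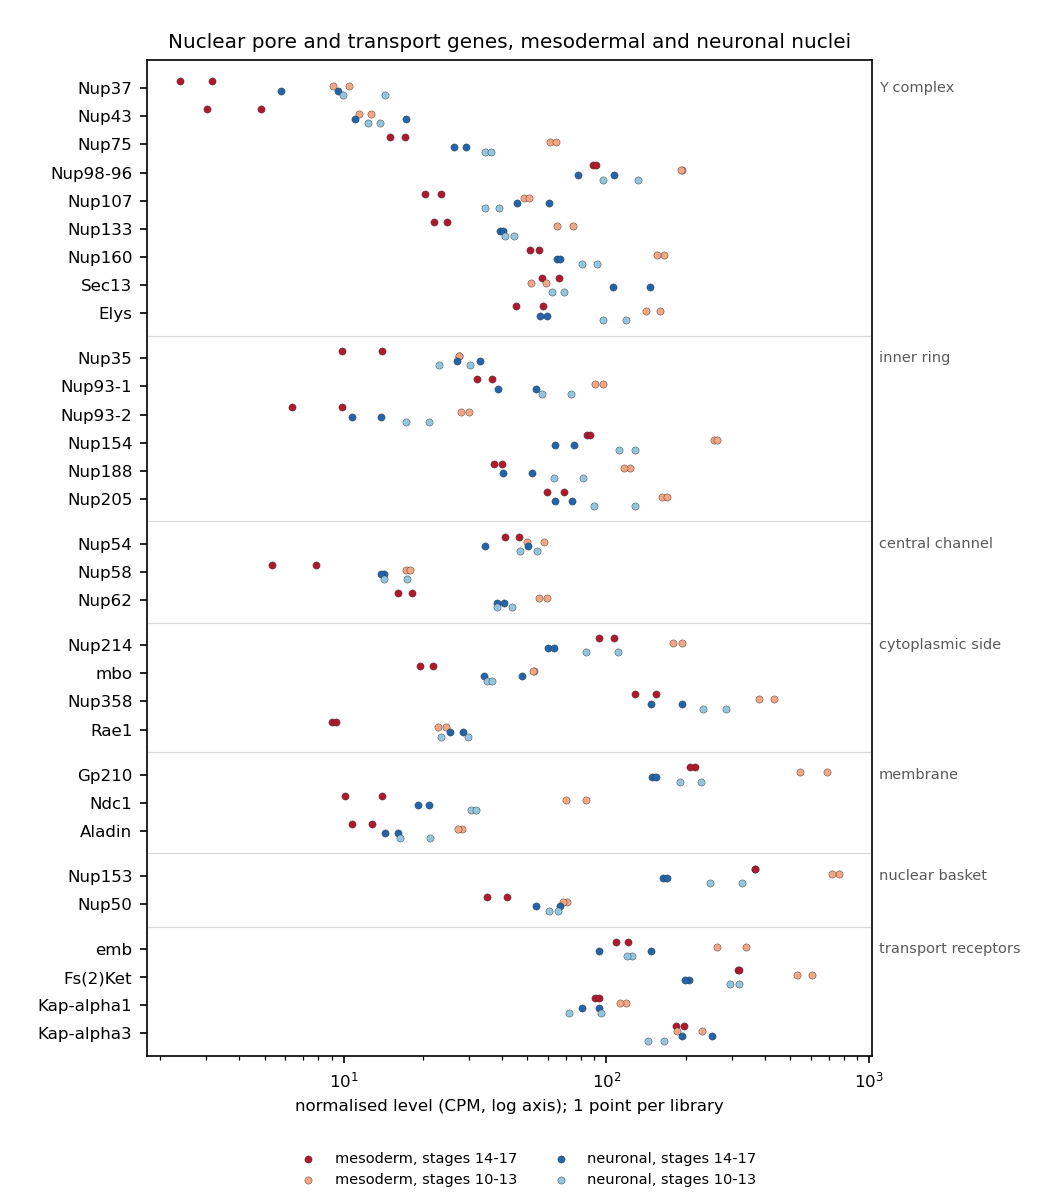
Level of each member in the 8 mesodermal and neuronal libraries (CPM, log axis), 1 point per library, in rows by place in the pore. The late mesodermal points lie left of the early mesodermal points in the 27 rows that fell, as for Ndc1 at 10.1 and 14.0 CPM against 83.6 and 70.0 CPM, while Sec13, Nup54 and Kap-alpha3 have both close together.

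All 3 genes placed in the membrane group, Ndc1, Gp210 and Aladin, fell. Ndc1 (FBgn0039125, 3R:23924399-23926436, plus strand) was at 10.1 and 14.0 CPM in late mesoderm, against 83.6 and 70.0 CPM in early mesoderm. Both late libraries lay far below both early ones, a change of -2.67 ± 0.23, or 6.37-fold lower (adjusted p = 0.000303). Gp210 was at 218 and 208 CPM in late mesoderm, against 691 and 544 CPM in early mesoderm, without overlap and with a change of -1.54 ± 0.19 (adjusted p = 0.000899). Aladin fell by 1.23 on the log2 scale.

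Of 9 Y complex genes tested, which form the outer scaffold rings, 8 fell. Nup75 (FBgn0034310, 2R:18164694-18167140, minus strand) was at 15.01 and 17.2 CPM in late mesoderm, against 60.9 and 64.5 CPM in early mesoderm. Nup160 (FBgn0262647, 2L:11123777-11129335, plus strand) was at 51.2 and 55.2 CPM in late mesoderm, against 166 and 156 CPM in early mesoderm. In both genes the 2 stages stood apart, with changes of -1.96 ± 0.18 for Nup75 (adjusted p = 0.000353) and -1.60 ± 0.17 for Nup160 (adjusted p = 0.000486). Elys, which brings the Y complex to chromatin as pores form after mitosis, fell by 1.55 on the log2 scale. The others that fell were Nup37, Nup43, Nup98-96, Nup107 and Nup133, between -1.82 and -1.10. Sec13, which also serves in the COPII coat of the secretory pathway, was at 56.7 and 65.9 CPM in late mesoderm, against 51.7 and 59.0 CPM in early mesoderm (0.15 ± 0.21, adjusted p = 0.6).

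The 6 inner ring genes, Nup35, Nup93-1, Nup93-2, Nup154, Nup188 and Nup205, all fell, between -1.83 and -1.21. On the cytoplasmic side, all 4 genes fell, with a change of -1.52 for Nup358, a large filament protein that binds Ran, -1.36 for Rae1, an mRNA export factor, -1.36 for mbo, the fly Nup88, and -0.90 for Nup214. In the central channel, Nup62 (FBgn0034118, 2R:16344377-16345828, plus strand) was at 16.0 and 18.3 CPM in late mesoderm, against 55.4 and 59.5 CPM in early mesoderm, again without overlap (-1.74 ± 0.18, adjusted p = 0.000501). Nup58 fell by 1.42, while Nup54 was at 41.1 and 46.5 CPM in late mesoderm, against 49.98 and 57.7 CPM in early mesoderm (-0.30 ± 0.23, adjusted p = 0.321). The basket genes fell too, with changes of -1.02 for Nup153 and -0.85 for Nup50.

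Among the transport receptors, the exportin emb, the fly Crm1, was at 120.3 and 109 CPM in late mesoderm, against 339 and 264 CPM in early mesoderm. The importin beta gene Fs(2)Ket was at 316 and 319 CPM in late mesoderm, against 605 and 530.0 CPM in early mesoderm. Both fell without overlap of the stages, with changes of -1.40 for emb (adjusted p = 0.00365) and -0.84 for Fs(2)Ket (adjusted p = 0.00528). The importin alpha genes, the adaptors that read nuclear localisation signals, were not called. Kap-alpha1 was at 90.3 and 94.0 CPM in late mesoderm, against 119 and 112 CPM in early mesoderm (-0.33 ± 0.19, adjusted p = 0.196). Kap-alpha3 was at 197 and 185 CPM in late mesoderm, against 230.3 and 186 CPM in early mesoderm (-0.13 ± 0.20, adjusted p = 0.640).

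**Figure D2:**
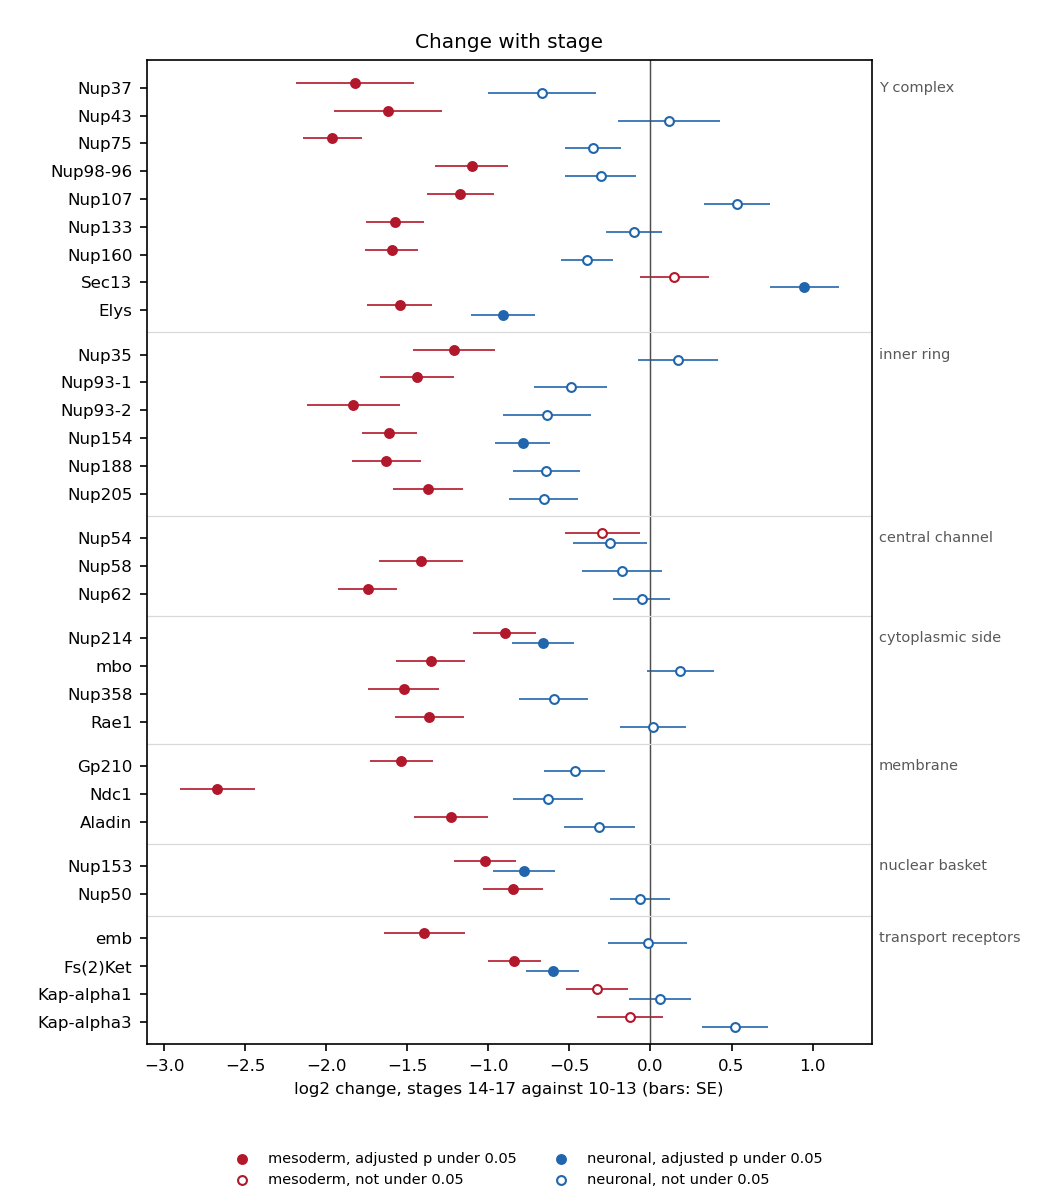
Log2 change of each member at stages 14-17 against 10-13 in mesodermal and in neuronal nuclei, with bars of 1 SE and filled points where the adjusted p is under 0.05. In mesoderm 27 of 31 points are filled and left of 0, from -2.67 for Ndc1 to -0.84 for Fs(2)Ket, while in neuronal nuclei 6 are filled.

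Leaving out each of the 4 mesodermal libraries in turn left 23 of the 27 calls in place every time. Nup37, Nup43, Nup35 and Nup50 were lost, each without late mesoderm replicate 1 and with adjusted p from 0.0520 to 0.0678. Cell cycle and replication markers moved with the pore genes: 10 of 10 fell, with a median of -2.07, and their summed level was 566 and 730.1 CPM in late mesoderm, against 3356 and 2876 CPM in early mesoderm. Neuron markers moved the other way, with 7 of 7 higher in late mesoderm and a median of 3.15. Their part in the fall of the pore genes was not tested.

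In neuronal nuclei the stages differed less. Of the 31 members, 5 fell and 1 rose, while 12% of all genes fell and 8.47% rose. The count that fell was not far above the share of all genes. The median change was -0.32 over the members and -0.03 over all genes. Summed levels were 1886 and 2213 CPM in late neuronal nuclei, against 2690 and 2353 CPM in early neuronal nuclei. Of 6 epidermis markers, 4 fell and 0 rose, with a median of -1.07 and summed levels of 1255 and 1875 CPM in late neuronal nuclei, against 3932 and 3541 CPM in early ones. Of 10 cell cycle markers, 1 fell and 0 rose. Late neuronal replicate 2 stood apart for 4 midgut markers, at a summed 903 CPM, against 126 CPM in late neuronal replicate 1 and 110.3 and 96.5 CPM in early neuronal nuclei. The part of these markers in the stage change was not tested. The 5 members that fell were the scaffold genes Nup154 and Elys, the FG nucleoporins Nup153 and Nup214, and the importin beta gene Fs(2)Ket. Their median exonic length was 6649 bases, against 2715 bases over the 31 members.

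Nup154 was at 64.0 and 75.0 CPM in late neuronal nuclei, against 128 and 112 CPM in early ones (-0.79 ± 0.17, adjusted p = 0.0193). Elys was at 59.3 and 55.6 CPM in late neuronal nuclei, against 119 and 97.2 CPM in early ones (-0.91 ± 0.20, adjusted p = 0.0201). In both genes the stages did not overlap. Nup153 was at 164 and 169.8 CPM in late neuronal nuclei, against 327 and 247 CPM in early ones (-0.78 ± 0.19, adjusted p = 0.0287), and Fs(2)Ket at 207 and 199 CPM, against 319 and 296 CPM (-0.60 ± 0.16, adjusted p = 0.0403). Nup214 fell by 0.66 on the log2 scale (adjusted p = 0.0478). Sec13 rose: it was at 106 and 147 CPM in late neuronal nuclei, against 62.2 and 68.7 CPM in early ones, without overlap (0.95 ± 0.21, adjusted p = 0.0229). The other receptors were not called. The exportin emb was at 93.9 and 148 CPM in late neuronal nuclei, against 126 and 119 CPM in early ones, Kap-alpha1 at 80.4 and 93.6 CPM, against 95.1 and 72.0 CPM, and Kap-alpha3 at 193 and 252 CPM, against 166 and 144 CPM.

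None of the 6 neuronal calls held in all 4 fits that each left out 1 neuronal library. Nup214 and Fs(2)Ket each kept theirs in 1 of the 4 fits, Sec13 in 2, and Elys, Nup154 and Nup153 in 3. Without early neuronal replicate 1 all 6 were lost, and Sec13 (adjusted p = 0.0674) and Fs(2)Ket (adjusted p = 0.0793) were also lost without early neuronal replicate 2. The number that fell was 2 without any 1 mesodermal library. These fits shared the neuronal libraries and differed in spread, scaling and the genes that passed the filter, with 10832 to 10849 genes tested, against 10549 with all libraries. The number that rose was 3 without late neuronal replicate 1. In a fit of the 4 neuronal libraries alone 0 of 31 members were called in either direction.

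The change with stage differed between the tissues for 17 of the 31 members, each with a more negative change in mesoderm than in neuronal nuclei. Over all genes this test called 14.7% in that direction and 20.6% in the other, where 0 members were called and 0 had an unadjusted p under 0.05. The difference was negative in sign for all 31 members, with a median of -0.99, against -0.11 over all genes. The 17 were Nup43, Nup75, Nup107, Nup133 and Nup160 of the Y complex, Nup35, Nup93-2, Nup154 and Nup188 of the inner ring, Nup58 and Nup62 of the channel, mbo, Nup358 and Rae1 of the cytoplasmic side, Gp210 and Ndc1 of the membrane, and emb.

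Ndc1 changed by -2.67 in mesoderm and by -0.63 in neuronal nuclei, a difference of -2.04 ± 0.31 (adjusted p = 0.00273). Nup62 changed by -1.74 in mesoderm, while it was at 38.2 and 40.6 CPM in late neuronal nuclei, against 38.3 and 43.6 CPM in early ones, and the difference was -1.69 ± 0.25 (adjusted p = 0.00258). For Nup62 the neuronal stages overlapped and the mesodermal stages did not. The difference was -1.61 ± 0.25 for Nup75 (adjusted p = 0.00306) and -1.47 ± 0.25 for Nup133 (adjusted p = 0.0041). For Nup153, Nup214 and Fs(2)Ket, which fell with stage in both tissues, the difference was -0.24 and was not called (adjusted p from 0.452 to 0.518).

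The 17 calls were sensitive to single libraries. The number was 8 without early mesoderm replicate 1, 10 without early mesoderm replicate 2, 7 without late mesoderm replicate 1 and 11 without early neuronal replicate 2. Calls for Nup75, Nup107, Nup133, Nup160, Nup62, mbo and Ndc1 remained without each of the 8 libraries in turn. For cell cycle markers the same test called 9 of 10 lower, with a median of -1.74, beside 14.7% of all genes lower and 20.6% higher. Of 7 neuron markers it called 6 higher and 0 lower (median 3.36), and of 6 epidermis markers 4 higher and 0 lower (median 3.39). Of 8 muscle markers 4 were higher and 2 lower, and of 5 hemocyte markers 2 higher and 1 lower. The part of these markers in the member differences was not tested.

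At stages 10-13, pore genes were higher in mesodermal than in neuronal nuclei. Of 31 members, 15 were higher and 0 lower, while 23.2% of all genes were higher and 29.5% lower, with a median difference of 0.55 over the members and -0.08 over all genes. No member was lower at an unadjusted p under 0.05, and DESeq2 and limma-voom called 0 lower. Summed levels were 4523 and 4216 CPM in early mesoderm, against 2690 and 2353 CPM in early neuronal nuclei.

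The membrane nucleoporin Gp210 (FBgn0266580, 2R:5760862-5774324, plus strand) was at 691 and 544 CPM in early mesoderm, against 229 and 191 CPM in early neuronal nuclei. Nup153 (FBgn0061200, X:16599241-16610459, plus strand), a basket protein that binds importins and chromatin, was at 764 and 723 CPM in early mesoderm, against 327 and 247 CPM in early neuronal nuclei. In each the 2 tissues did not overlap, with differences of 1.56 ± 0.19 for Gp210 (adjusted p = 0.000653) and 1.38 ± 0.19 for Nup153 (adjusted p = 0.00103). Nup154 was at 257 and 264 CPM in early mesoderm, against 128 and 112 CPM in early neuronal nuclei, and Ndc1 at 83.6 and 70.0 CPM, against 30.6 and 31.9 CPM. Both stood clear of the other tissue, by 1.12 ± 0.17 for Nup154 (adjusted p = 0.00143) and 1.30 ± 0.22 for Ndc1 (adjusted p = 0.00219).

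The other 11 higher members were Nup75, Nup98-96, Nup133, Nup160, Nup188, Nup205, Nup62, Nup214, Nup358, emb and Fs(2)Ket, between 0.49 for Nup62 and 1.30 for emb. The exportin emb was at 339 and 264 CPM in early mesoderm, against 126 and 119 CPM in early neuronal nuclei (adjusted p = 0.00408), and importin beta, Fs(2)Ket, at 605 and 530.0 CPM, against 319 and 296 CPM (0.88 ± 0.17, adjusted p = 0.00363). The importin alpha genes were not called: Kap-alpha1 was at 119 and 112 CPM in early mesoderm, against 95.1 and 72.0 CPM in early neuronal nuclei (0.47 ± 0.19), and Kap-alpha3 at 230.3 and 186 CPM, against 166 and 144 CPM (0.42 ± 0.20). Calls for 9 of the 15 remained without each of the 4 early libraries in turn: Nup75, Nup160, Nup154, Nup214, Gp210, Ndc1, Nup153, emb and Fs(2)Ket. The number higher was 9 without early mesoderm replicate 1 and 23 without late neuronal replicate 2. Of 10 cell cycle markers, 9 were higher in early mesoderm. Their summed levels were 3356 and 2876 CPM, against 1085 and 1029 CPM in early neuronal nuclei. Of 6 epidermis markers, 2 were higher and 4 lower in early mesoderm, with a median of -2.59. Their summed levels were 1427 and 1593 CPM in early mesoderm, against 3932 and 3541 CPM in early neuronal nuclei. The part of either list in the member differences was not tested.

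**Figure D3:**
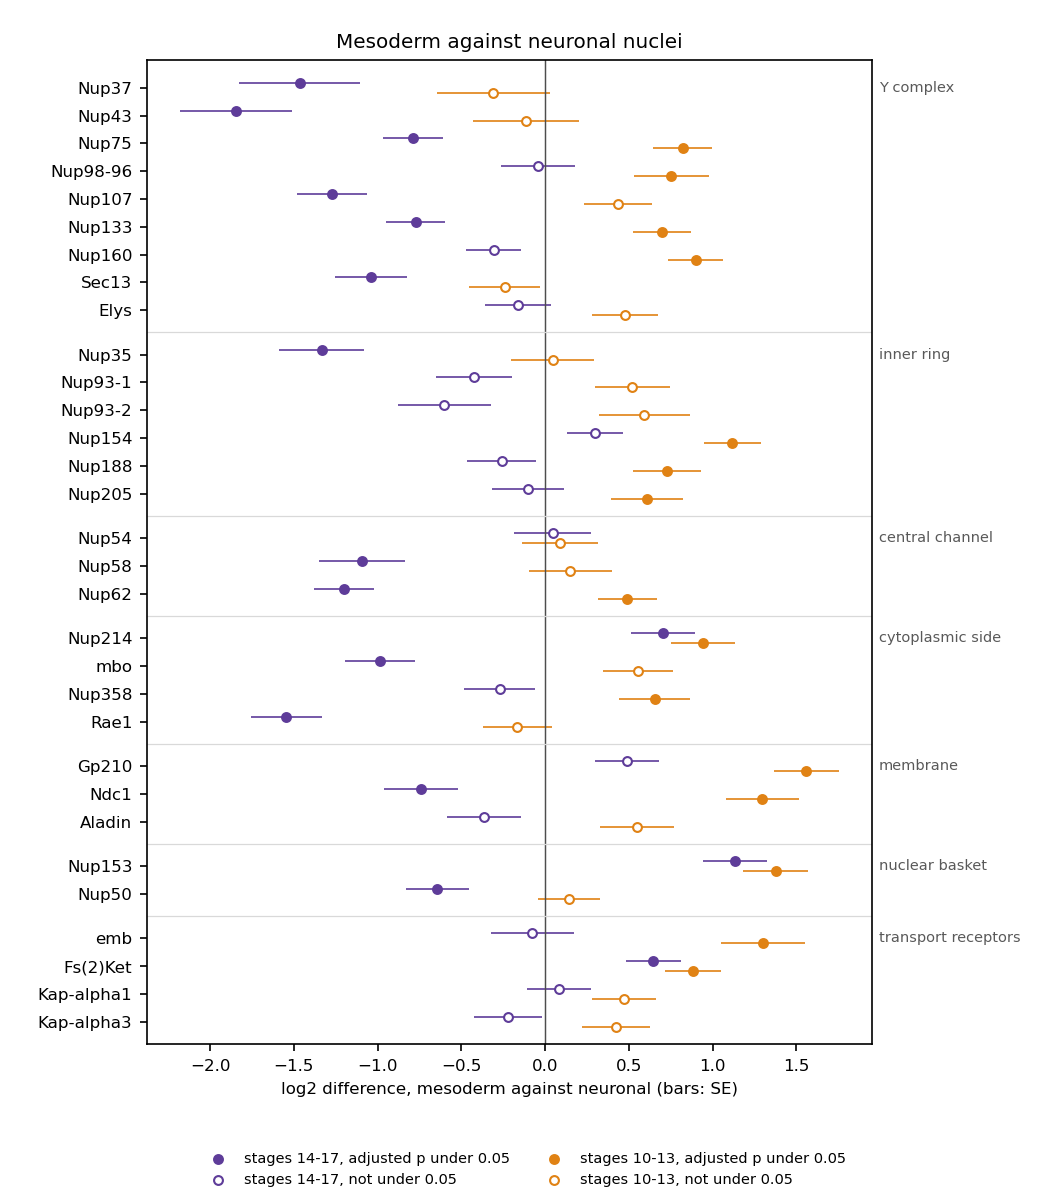
Log2 difference of each member between mesodermal and neuronal nuclei at stages 14-17 and at stages 10-13, with bars of 1 SE and filled points where the adjusted p is under 0.05. At stages 14-17 the filled points lie mostly left of 0, down to -1.85 for Nup43, and at stages 10-13 all 15 filled points lie right of 0, up to 1.56 for Gp210.

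At stages 14-17 the balance between the tissues was mixed. Of 31 members, 13 were lower and 3 higher in mesodermal nuclei, while 22.1% of all genes were lower and 19% higher, with a median of -0.37 over the members and -0.12 over all genes. Summed levels overlapped, at 2006 and 2092 CPM in late mesoderm, against 1886 and 2213 CPM in late neuronal nuclei. Of 10 cell cycle markers, 6 were lower and 1 higher in late mesoderm, with a median of -0.58 and summed levels of 566 and 730.1 CPM, against 862 and 919.7 CPM in late neuronal nuclei. Of 5 hemocyte markers, 3 were higher and 1 lower, at summed levels of 3131 to 3240 CPM in late mesoderm, against 1120 to 1243 CPM in late neuronal nuclei. The part of either list in the member differences was not tested.

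The 4 lower members with the smallest adjusted p came from 3 places in the pore. Rae1 (FBgn0034646, 2R:21658770-21660007, minus strand) was at 9.05 and 9.35 CPM in late mesoderm, against 25.3 and 28.5 CPM in late neuronal nuclei (-1.55 ± 0.21, adjusted p = 0.00256). Nup62 was at 16.0 and 18.3 CPM in late mesoderm, against 38.2 and 40.6 CPM in late neuronal nuclei (-1.20 ± 0.18, adjusted p = 0.00338). In neither gene did the tissues overlap. The Y complex genes Nup107 and Nup43 were lower as well. Nup107 was at 20.4 and 23.6 CPM in late mesoderm, against 45.6 and 60.6 CPM in late neuronal nuclei (-1.27 ± 0.21, adjusted p = 0.00439), and Nup43 at 3.02 and 4.86 CPM, against 11.03 and 17.3 CPM (-1.85 ± 0.33, adjusted p = 0.00603). The remaining 9 were Nup37, Nup75, Nup133, Sec13, Nup35, Nup58, mbo, Ndc1 and Nup50, between -1.47 and -0.64.

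The 3 higher members were Nup153, Fs(2)Ket and Nup214. Nup153 was at 366 and 367 CPM in late mesoderm, against 164 and 169.8 CPM in late neuronal nuclei (1.14 ± 0.19, adjusted p = 0.0048). Fs(2)Ket was at 316 and 319 CPM, against 207 and 199 CPM (0.65 ± 0.16, adjusted p = 0.0187), and Nup214 at 107 and 93.7 CPM, against 59.8 and 63.4 CPM (0.70 ± 0.19, adjusted p = 0.0236). All 3 were separated between the tissues. The other receptors overlapped: emb was at 120.3 and 109 CPM in late mesoderm, against 93.9 and 148 CPM in late neuronal nuclei, and Kap-alpha1 at 90.3 and 94.0 CPM, against 80.4 and 93.6 CPM. Kap-alpha3 was at 197 and 185 CPM in late mesoderm, against 193 and 252 CPM in late neuronal nuclei.

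Only the calls for Nup107, Nup62, Rae1 and, upward, Nup153 remained without each of the 4 late libraries in turn. The number lower was 3 without late mesoderm replicate 1, and the number higher was 1 without either late mesoderm replicate. Scaling by library totals alone moved the median of all genes to -0.33 at stages 10-13 and to -0.42 at stages 14-17. With that scaling, 9 members were higher in early mesoderm, and 19 lower and 1 higher in late mesoderm. The share of higher among all called genes was 44% at stages 10-13 and 46.2% at stages 14-17, and 31% and 27.9% with library totals alone.

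The difference between the tissues went with gene length. At stages 14-17 the 13 lower members had a median exonic length of 1820 bases and the 3 higher ones 7157 bases. Spearman's rho between exonic length and the tissue difference was 0.79 over 31 members and 0.52 over 10352 genes at stages 14-17, and 0.73 and 0.32 at stages 10-13. These are descriptions across genes of the same libraries, and genes are not independent replicates. For the stage change in mesoderm, rho was 0.09 over the members and -0.01 over all genes, and in neuronal nuclei -0.52 and -0.17.

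Each member was therefore also set against the median of all genes in its class of exonic length, out of 10 classes of about equal numbers of genes. At stages 10-13, 25 of 31 members lay above that median, at a median distance of 0.35. Nup98-96, Nup188, Nup358 and Nup205, called higher in early mesoderm, lay -0.02, -0.05, -0.12 and -0.16 from the median of their class. The other members called higher there lay above theirs. At stages 14-17, 26 of 31 members lay below the median of their class, at a median distance of -0.63. Nup153, called higher in late mesoderm, lay 0.04 from the median of its class, and Fs(2)Ket lay -0.45 from it. Nup358 and Nup188, which were not called, lay -1.37 and -1.36 from theirs. For the stage change in mesoderm 30 of 31 lay below the median of their class, at a median distance of -1.35, and for the difference of stage changes 30 of 31, at -1.02. For the stage change in neuronal nuclei 24 of 31 lay below it, at a median distance of -0.26. The cause of the relation was not tested.

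**Figure D4:**
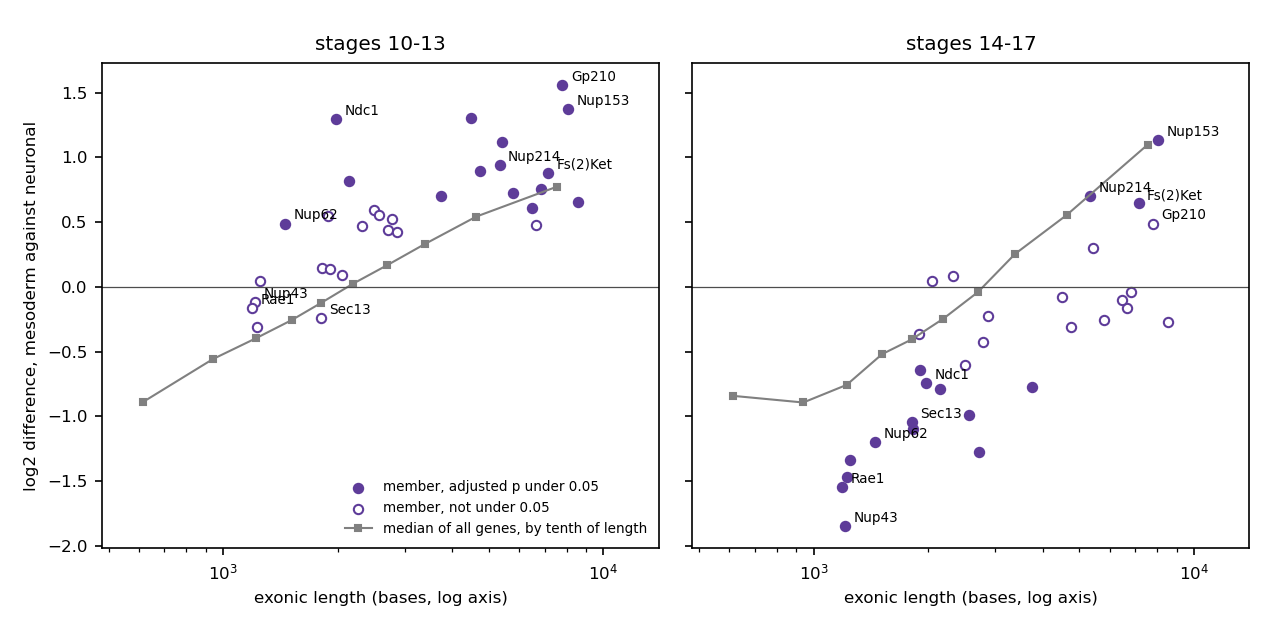
Log2 difference between mesodermal and neuronal nuclei against exonic length (bases, log axis) for each member, at stages 10-13 and 14-17, with squares for the median of all genes in each of 10 length classes. At both stages the line of all genes climbs with length, and most members lie above it at stages 10-13 (25 of 31) and below it at stages 14-17 (26 of 31).

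Levels were compared between genes per kilobase of exonic length. In late mesoderm the highest was Kap-alpha3 at 66.5 ± 3.0 CPM per kb, followed by Nup153 at 45.5 ± 0.1, Fs(2)Ket at 44.3 ± 0.3, Kap-alpha1 at 39.7 ± 1.1 and Sec13 at 33.9 ± 3.6 (SD, n = 2). In early mesoderm Nup153 led at 92.2 ± 3.6 CPM per kb, and Fs(2)Ket at 79.3 ± 7.4, Gp210 at 79.1 ± 13.3, Kap-alpha3 at 72.6 ± 10.9 and emb at 67.1 ± 11.95 lay within each other's spread. In late neuronal nuclei Kap-alpha3 at 77.6 ± 14.4 and Sec13 at 69.8 ± 16.1 CPM per kb were not separated by their spread. In early neuronal nuclei Kap-alpha3 led at 54.1 ± 5.3 CPM per kb. The lowest member with counts was Nup37 in both mesodermal groups, at 2.25 CPM per kb late and 7.98 CPM per kb early. Nup37 ends 247 bases before Nup358 starts on the same strand of 3R. Nup358 ranked 11 of 32 per kilobase in late mesoderm and 8 of 32 in early mesoderm, against rank 31 for Nup37 in both.

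Mesodermal nuclei with Ubx targeted for degradation were compared with controls at stages 14-17. Of 31 members, 0 were called in either direction by edgeR's quasi-likelihood test, DESeq2 or limma-voom, against 3.57% of all 11641 genes higher and 1.21% lower. At an unadjusted p under 0.05, 3 members were lower and 0 higher, beside 2891 of all 11641 genes in either direction. The median was -0.12 over the members and -0.01 over all genes. Summed levels were 1470, 1444 and 1555 CPM in degraded nuclei, against 1627, 1545 and 1337 CPM in controls, and overlapped. Of 6 epidermis markers, 3 were higher and 0 lower, at summed levels of 1891 to 2261 CPM in degraded nuclei, against 987 to 1159 CPM in controls.

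The smallest adjusted p belonged to Nup188, an inner ring gene at 10.3, 9.05 and 8.73 CPM in degraded nuclei, against 14.2, 15.4 and 11.01 CPM in controls (-0.53 ± 0.17, adjusted p = 0.113). Nup37 was at 1.21, 1.10 and 1.05 CPM in degraded nuclei, against 1.81, 1.66 and 1.49 CPM in controls (-0.56 ± 0.23, adjusted p = 0.176). In both genes each degraded library was below each control library. Counts of Nup37 were low, at 26 to 31 in degraded and 35 to 52 in control libraries. Sec13 was at 19.6, 18.1 and 15.8 CPM in degraded nuclei, against 29.1, 29.3 and 17.4 CPM in controls (-0.50 ± 0.21, adjusted p = 0.187), and overlapped through control replicate 3.

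The transport receptors were not called in either direction. Fs(2)Ket was at 272, 224 and 223 CPM in degraded nuclei, against 192, 188 and 218 CPM in controls (0.27 ± 0.13, adjusted p = 0.238). The exportin emb was at 55.9, 54.6 and 58.3 CPM in degraded nuclei, against 69.4, 65.4 and 48.8 CPM in controls (-0.12 ± 0.15, adjusted p = 0.677). Kap-alpha1 was at 46.6, 55.8 and 61.1 CPM, against 50.2, 50.3 and 44.3 CPM, and Kap-alpha3 at 174.5, 159 and 162 CPM, against 181, 170.0 and 155 CPM. The receptors other than Fs(2)Ket overlapped, and Fs(2)Ket had every degraded library above every control library. Nup153 was even across all libraries, at 315, 318 and 317 CPM in degraded nuclei, against 309.7, 315 and 327 CPM in controls.

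Control replicate 3 stood apart. It was the lowest of the 3 controls for 28 of the 31 members, while over all genes it was the lowest for 43.5%. Its summed cell cycle markers were also lowest, at 407 CPM, against 754 and 568 CPM in the other controls, while the degraded libraries had 638, 530.2 and 634 CPM. Its summed mesoderm and muscle markers were highest, at 46640 CPM, against 34580 and 36800 CPM in the other controls. Counts assigned to a gene made up 42.7% of its total, against 48.1% and 48.9% in the other controls. Reads that mapped to several places made up 48.6%, against 43.7% and 42.8%. The part of these differences in the member levels was not tested. Without control replicate 3, 7.53% of all genes were called lower in degraded nuclei and 6.35% higher, and of the 31 members 3 were lower and 0 higher, a share near that of all genes. The 3 were Sec13 at -0.71 ± 0.14 (adjusted p = 0.0196), Nup107 at -0.79 ± 0.16 (adjusted p = 0.022) and Nup188 at -0.66 ± 0.14 (adjusted p = 0.0276).

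**Figure D5:**
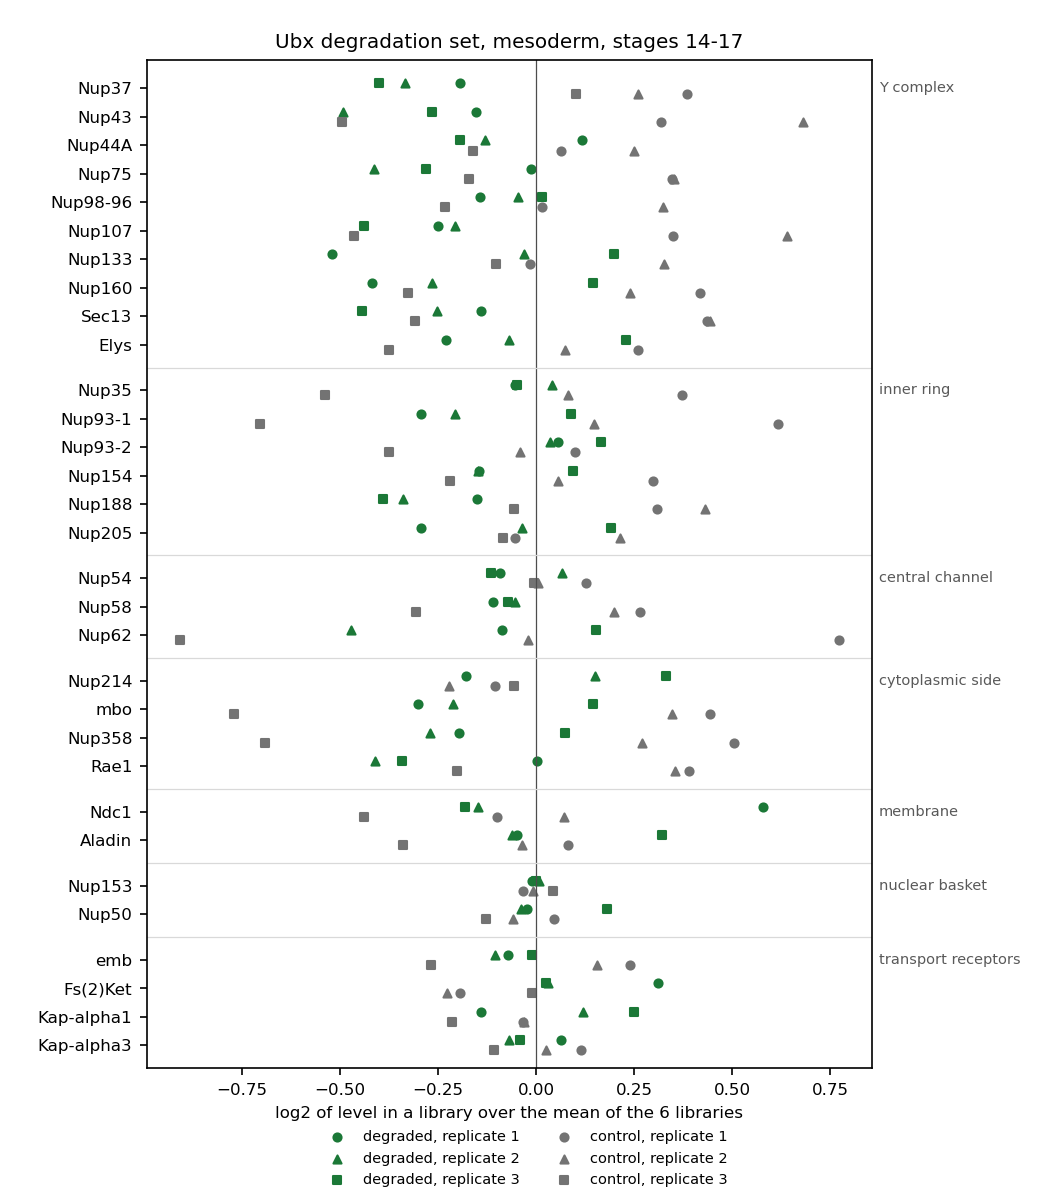
Level of each member in each degraded and control library as log2 of its ratio to the mean of the 6 libraries. Control replicate 3 (grey squares) is the lowest control for 28 of 31 members, as for Sec13 at 17.4 CPM against 29.1 and 29.3 CPM in the other controls.

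Other genes of nuclear transport and the envelope were counted from 3 lists. Of 14 genes of the Ran cycle and other karyopherins tested, 5 fell with stage in mesoderm and 0 rose, beside 22.7% of all genes that fell and 24.9% that rose: Ipo9, an importin, at -1.98, Rcc1, the exchange factor that loads Ran with GTP on chromatin, at -1.40, Ranbp21, a karyopherin, at -1.10, Tnpo-SR, which imports splicing factors, at -1.02, and Ran itself at -0.84. In neuronal nuclei 0 of the 14 were called with stage, beside 12% of all genes that fell and 8.47% that rose. Against late neuronal nuclei, late mesoderm had 4 of the 14 lower and 1 higher, the exportin gene ebo at 1.30 ± 0.22, beside 22.1% of all genes lower and 19% higher. At stages 10-13, 4 were higher in mesoderm and 1 lower, beside 23.2% of all genes higher and 29.5% lower. At neither stage did these counts lie far above the shares of all genes. That 1 was RanGAP, the GTPase activator of Ran, at 2295 to 3031 CPM in early mesoderm, against 6102 to 8453 CPM in early neuronal nuclei (-1.45 ± 0.42, adjusted p = 0.023). Its value is uncertain, since other genes overlap 50.1% of its span. INTACT lines of flies are known to carry a RanGAP fusion as the envelope tag, and reads of such a transgene and of the gene cannot be told apart here.

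Of 13 mRNA export genes, 0 were called with stage in neuronal nuclei, beside 12% of all genes that fell and 8.47% that rose. In mesoderm, beside 22.7% of all genes that fell and 24.9% that rose, 0 of the 13 rose with stage and 9 fell. They included nxf2, a relative of the export receptor, at -2.40, thoc5 of the THO complex at -1.26, the helicase Hel25E at -1.06 and Nxt1, the partner of the export receptor, at -1.03. The export receptor sbr itself was not called with stage (-0.53 ± 0.31) and was higher in mesoderm at both stages, by 1.216 ± 0.31 late and 1.005 ± 0.31 early. In late mesoderm 6 of the 13 were lower than in late neuronal nuclei and 1 higher, with a median of -0.64. At stages 10-13, 3 were higher in mesoderm and 0 lower. Over all genes 22.1% were lower and 19% higher at stages 14-17, and 29.5% lower and 23.2% higher at stages 10-13. Of 8 lamina and inner membrane genes, 5 fell and 1 rose with stage in mesoderm, beside 22.7% of all genes that fell and 24.9% that rose. The changes were -2.33 for Ote, a LEM domain protein, -2.07 for LBR, the lamin B receptor, -0.82 for MAN1 and -0.76 for the B-type lamin gene Lam. Msp300, a nesprin that holds muscle nuclei in place, rose in mesoderm by 2.51 ± 0.28 and fell in neuronal nuclei by 1.87, with a difference of 4.39 ± 0.39 (adjusted p = 0.000744). Lam had the opposite pattern to Msp300, with a rise of 0.77 ± 0.22 in neuronal nuclei and a difference of -1.53 ± 0.32 (adjusted p = 0.00937). In degraded against control nuclei, 0 genes of these lists were called, beside 3.57% of all genes higher and 1.21% lower.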

How the data were processed

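Nuclear RNA was sequenced in 14 libraries. The deposited values are raw counts, 1 per gene and library, and the submitters' processing notes list HTSeq and FastQC as tools and BDGP6 and dm6 as builds. Aligner, tool versions, annotation and strand setting: not given in the sources used. Rows without a gene entered neither library sizes nor tests.

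Symbols, coordinates and exonic lengths came from Ensembl annotation on BDGP6, which matched 98.4% of gene identifiers in the tissue and stage tables (14156 genes) and 95.7% in the degradation tables (15682 genes). The sets list different genes and were fitted apart. Genes passing filterByExpr (minimum count 10, minimum total 15) were tested in edgeR 4.0.16 (R 4.3.3) after TMM scaling, with the quasi-likelihood test over all genes and 4 residual degrees of freedom a set. Biological coefficients of variation, common to all genes, came to 0.277 in the tissue and stage set and 0.191 in the degradation set. Alternatives were other scalings, no filter, DESeq2 1.42.0, limma 3.58.1 (voom), a replicate block, the 4 libraries compared alone and leaving out each library. The fits were also run on counts simulated from the fitted spread, which cannot show whether these libraries depart from the model.

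The members, gene lists and tests were chosen with earlier results of these data known. Full values are given for transport receptors and, per comparison, up to 4 members with the smallest adjusted p in each direction. Genes overlapped over 40% or more of their span are called uncertain. The listed symbols Bj1, Ranbp9, arts, apolo and xmas are not analysed here. Among other marker lists, with stage in mesoderm, epidermis had 3 higher and 1 lower of 6, hemocyte 3 and 1 of 5, midgut 0 and 0 of 4, fat body 0 and 0 of 3, and muscle 5 and 3 of 8.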

Additional observations from a re-analysis of the deposited data

Results flagged for a closer look

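For 17 members the change with stage differed between the tissues in a test of the difference itself (edgeR's interaction contrast, adjusted over all genes), and each was more negative in mesodermal than in neuronal nuclei. In the scaffold, the log2 difference was -1.73 for Nup43, -1.61 for Nup75, -1.71 for Nup107, -1.47 for Nup133 and -1.21 for Nup160. It was -1.38 for Nup35, -1.19 for Nup93-2, -0.82 for Nup154 and -0.99 for Nup188. In the channel and on the cytoplasmic side it was -1.24 for Nup58, -1.69 for Nup62, -1.54 for mbo, -0.93 for Nup358 and -1.38 for Rae1. It was -1.07 for Gp210 and -2.04 for Ndc1 in the membrane, and -1.38 for emb. Calls for 7 of the 17 remained without each library in turn.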

How the results depend on the processing

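No called value of a member changed sign under any alternative, and the 27 members that fell with stage in mesoderm stayed at 27 under every other scaling, filter, tool and block tried. With library totals alone, 9 members were higher in early mesoderm than in early neuronal nuclei, 1 was higher in late mesoderm, and 8 fell with stage in neuronal nuclei. With only the 4 libraries compared, late mesoderm had 1 member higher, 8 lower and 2810 genes called in all, and the neuronal stages had 0 members higher, 0 lower and 765 genes called. Members lower in late neuronal nuclei came to 3 with DESeq2's size factors and 3 with no filter. Between degraded and control nuclei DESeq2 called 1212 genes in all.

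The main fits did not pair libraries by replicate number. Same-numbered degraded and control libraries correlated at 0.257, 0.0915 and 0.280 in their deviations, all positive, and the other set at -0.125 to 0.239. Differently numbered libraries were not compared in this way, so these values do not settle whether the numbers mark pairs. With the replicate block, 1238 genes were called between degraded and control nuclei, against 557 without it, with 0 members in both fits. Whether same-numbered libraries share a batch was not tested.

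Leaving out each library in turn gave 9 to 23 members higher in early mesoderm, 1 to 3 higher and 3 to 15 lower in late mesoderm (1328 to 5647 genes in all), and 2862 to 6267 genes called with stage in mesoderm. It gave 0 to 3 members higher, 0 to 6 lower and 386 to 4231 genes called with stage in neuronal nuclei, 7 to 24 members and 2000 to 5261 genes for the difference of stage changes, and 0 to 3 members lower and 34 to 1645 genes between degraded and control nuclei. Where 1 library was left in a group, it was assumed to vary like the others. The cause of these moves was not tested. With 2 or 3 libraries a group, small differences were not detectable.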
